A study of Triticum aestivum with 12 samples.

Results

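Rab15 is a wheat dehydrin gene that the array annotation lists as LOC543293. It is 1 of the 771 genes named by probe sets with exactly 1 gene symbol, and all of its probe sets were taken, which gave 3 of the 61179 tested. The gene was selected on its difference between Sp. NK and C. NK, the conditions explained next. The probe sets are called Rab15_at, Rab15_x_at and Rab15_EST here, after the suffix of their array names or the kind of sequence they were designed on. Root RNA of the wheat genotype Tongzhou916 was measured on Affymetrix Wheat Genome Arrays, with 12 arrays in all and 3 for each condition. Seedlings 3 weeks old, raised in normal K, were moved for 5 days to a split-root system whose compartments are fed separately. In Sp. NK and Sp. LK the root system of a plant was divided between both supplies, and Sp. NK is the side at 1.0 mmol/L of potassium sulfate while Sp. LK is the side at 0.005 mmol/L. In C. LK both compartments held 0.005 mmol/L, and in C. NK both held 1.0 mmol/L. All 4 groups share the genotype, the age, the growth in normal K beforehand and the days in the split-root system. Only this K-efficient genotype was used, and each replicate pooled several plants. The sources used here do not say whether Sp. NK and Sp. LK arrays of the same number came from the same plants.

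Dehydrins are very hydrophilic proteins of the late embryogenesis abundant (LEA) class, with a conserved lysine-rich segment that is thought to fold on membranes and partly denatured proteins. Genes of the Rab type (responsive to abscisic acid) are switched on by this hormone through promoter elements bound by bZIP factors. They are known from drying seeds and from roots and leaves under drought, cold or salt, which all lower the water available to the cell. K itself is a main osmolyte of plant cells.

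The 3 probe sets do not measure the gene in the same way. Rab15_at and Rab15_x_at were designed on the same target sequence, and the suffix x marks a probe set in which some probes can also bind similar transcripts. Rab15_EST was designed on another sequence, an expressed sequence tag. The signals of different probe sets have no common scale, so only their patterns over the arrays are set side by side. Wheat carries related copies of most genes in its subgenomes, and transcripts of close copies cannot be told apart here. In whole roots, fewer cells that express a gene and less RNA per cell cannot be told apart either.

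On Rab15_at the normalized signal was highest in the roots on the normal-K side of the split system. The 3 Sp. NK arrays had signals of 197, 173 and 212, and the 3 Sp. LK arrays had 102, 79.8 and 148. In uniform supply, the C. LK arrays had 81.7, 77.3 and 97.9, and the C. NK arrays had 88.6, 24.8 and 134. The Sp. NK arrays were thus the 3 highest of the 12, and the arrays of the other conditions overlapped with one another. A probe set with all Sp. NK arrays above the other 9 arrays was found in 0.252% of the probe sets tested. Since the high Sp. NK values were known at that choice, this pattern is given as a description. The mean signals were 194 ± 19.4 in Sp. NK, 110 ± 34.5 in Sp. LK, 85.6 ± 10.8 in C. LK and 82.6 ± 55.1 in C. NK (SD, n = 3 each).

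**Figure D1:**
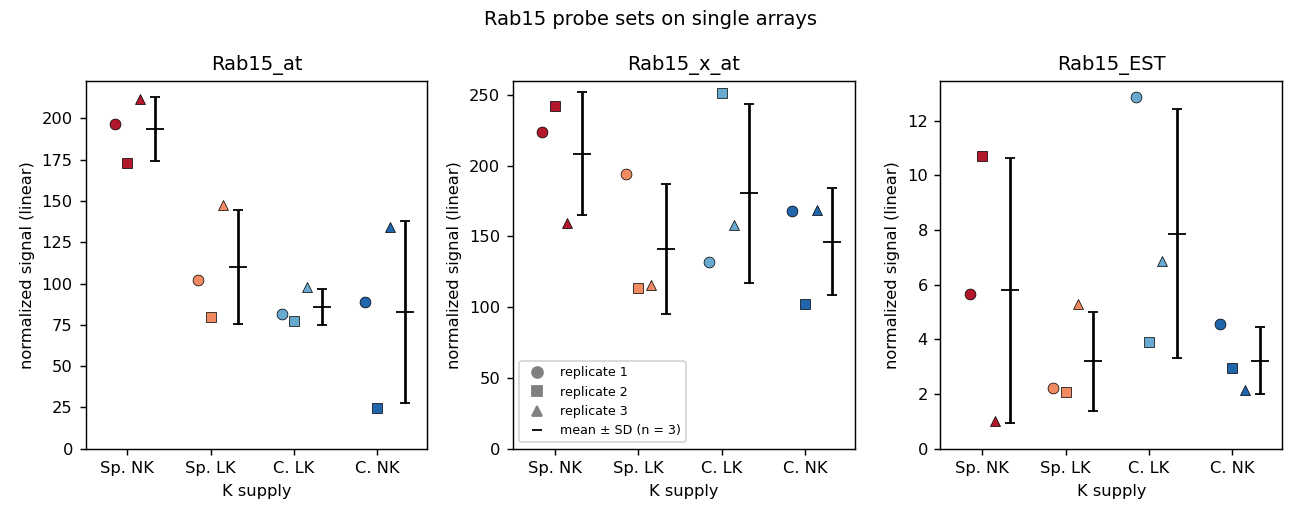
Normalized signal (linear scale, from 0) of the 3 Rab15 probe sets on the 12 arrays, by K supply. Symbols are single arrays by replicate number, and the black bars are the mean ± SD of 3 arrays. On Rab15_at the Sp. NK arrays lie between 173 and 212 and above all others, while the groups overlap on the other probe sets, and Rab15_EST stays under 13.

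On Rab15_x_at, designed on the same target, the conditions overlapped in all 6 pairs. The Sp. NK arrays had signals of 224, 242 and 160, against 194, 114 and 116 in Sp. LK. The C. LK arrays had 132, 252 and 158, against 168, 102 and 168 in C. NK. The highest of the 12 arrays was thus C. LK replicate 2 and not an Sp. NK array. The means were 208 ± 43.4 in Sp. NK, 141 ± 45.8 in Sp. LK, 180 ± 63.1 in C. LK and 146 ± 38.0 in C. NK (SD, n = 3 each).

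Rab15_EST was dim on every array. Its signals were 5.66, 10.7 and 1.03 in Sp. NK, 2.22, 2.08 and 5.28 in Sp. LK, 12.9, 3.90 and 6.86 in C. LK and 4.57, 2.94 and 2.15 in C. NK. All lie under a signal of 32, a range close to background in which 30.5% to 33.9% of an array's signals lay. Its fold changes are therefore given for completeness.

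The mean log2 signals of Rab15_at were ordered Sp. NK > Sp. LK > C. LK > C. NK, at 7.59, 6.73, 6.41 and 6.06. Of the neighbours in this order, Sp. NK and Sp. LK did not overlap, while Sp. LK and C. LK, and C. LK and C. NK, did. The order on Rab15_x_at was Sp. NK > C. LK > C. NK > Sp. LK, at 7.68, 7.44, 7.16 and 7.09, and all neighbours overlapped. Both orders begin with Sp. NK, and they differ in the place of Sp. LK. On the dim Rab15_EST the order was C. LK > Sp. NK > C. NK > Sp. LK, and all neighbours overlapped.

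The comparison of the normal-K side with uniform normal K asks whether a root in normal K changes when another part of the same root system is short of K. Here the log2 fold change was 1.54 (standard error 0.49) for Rab15_at, a fold of 2.90. It was 0.53 (standard error 0.32) for Rab15_x_at and 0.37 (standard error 0.93) for Rab15_EST. The study thresholds (p under 0.05, more than 1.5-fold) were applied here to unadjusted p and in either direction. The paper does not say whether its p was adjusted, and it counted fewer genes in C. LK vs. C. NK than the 2235 probe sets called here. In Sp. NK vs. C. NK, 1 of the 3 Rab15 probe sets passed them, against 3.38% of all probe sets. Nothing is read from this count because the gene was chosen with this comparison known. Every Sp. NK array of Rab15_at lay above every C. NK array, as in 4.43% of all probe sets. The standard error of 0.49 assumes the same spread in all conditions, which Rab15_at did not have. It was 0.55 for this probe set in a limma fit of these 6 arrays alone. The methods' t-test, run on the same 6 arrays without pairing them, had a standard error of 0.74 and did not place Rab15_at past the study thresholds. The 3' minus 5' difference of control transcripts, a measure of RNA degradation, was also set side by side for these groups. On the log2 scale that of sucrose synthase was 3.71 to 4.20 in Sp. NK and 4.29 to 4.51 in C. NK, which did not overlap. The groups overlapped on the other wheat controls. Of the bright ones, G-6-PDH had 1.24 to 1.39 in Sp. NK and 1.25 to 1.28 in C. NK, and ubiquitin had -0.30 to -0.21 in Sp. NK and -0.34 to -0.27 in C. NK. The dimmer CYP86 had -0.44 to -0.24 in Sp. NK and -0.48 to 0.34 in C. NK. Actin had -2.48 to -1.17 in Sp. NK and -3.87 to -2.16 in C. NK, ef1a had -1.89 to -0.82 in Sp. NK and -3.69 to -1.03 in C. NK, and gapdh had -2.60 to -1.84 in Sp. NK and -3.02 to -1.43 in C. NK. The 3' signals of these last ones fell to 18.1, 10.9 and 29.6 on their dimmest array, close to background. The part of RNA quality in the result was not tested.

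The size of this difference moved most with a single control array. C. NK replicate 2 had the lowest signal of all 12 arrays on both Rab15_at (24.8) and Rab15_x_at (102). Without it, the log2 fold change of Rab15_at on the normal-K side was 0.82 (standard error 0.33), and without C. NK replicate 3 it was 2.04 (standard error 0.47). Leaving out any other array kept it between 1.47 and 1.74. In each of the 4 conditions, replicate 3 was the highest and replicate 2 the lowest array on Rab15_at. Rab15_x_at showed this pattern in C. NK but not in the other conditions. On Rab15_x_at, replicate 2 was the highest array of Sp. NK (242) and of C. LK (252). What the arrays of a number share was not tested. The SD of the log2 signal over the C. NK arrays was 1.27 on Rab15_at, against 0.15 over the Sp. NK arrays. An SD that large in C. NK was reached by 226 of the 30590 brighter probe sets (the brighter part of the array, split at the median of the mean log2 signals). Over these, C. NK replicate 2 correlated with the other 11 arrays at a mean r of 0.970, within the range of 0.956 to 0.970 over the 12 arrays. This r is across probe sets, which are not replicates, and a fault in part of an array could leave it unchanged. Whether this array was faulty was not tested.

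**Figure D2:**
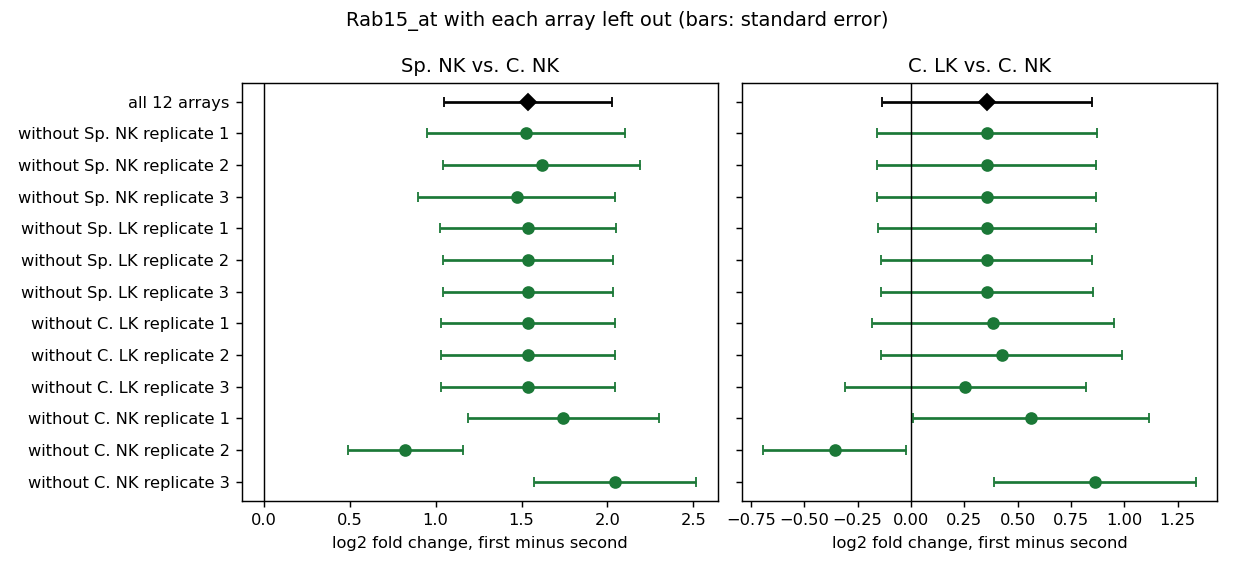
Log2 fold change of Rab15_at (bars, standard error of the fit) with all 12 arrays and with each array left out in turn, for Sp. NK vs. C. NK and for C. LK vs. C. NK. Without C. NK replicate 2 the first falls to 0.82 and the second turns to -0.36.

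The low-K side against uniform low K has no array in common with the comparison in which the gene was noticed, but its standard errors come from the spread over all 12 arrays. In Sp. LK vs. C. LK, the log2 fold change was 0.32 (standard error 0.49) for Rab15_at and -0.34 (standard error 0.32) for Rab15_x_at. Their intervals at 95% ran from -0.74 to 1.38 and from -1.03 to 0.35, and the upper bound on Rab15_at equals 2.60-fold. The standard error of Rab15_at was 0.30 without C. NK replicate 2 and 0.34 in a fit of these 6 arrays alone. Rab15_EST had -1.27 (standard error 0.93). The adjusted p of limma were 0.91, 0.83 and 0.78 (Benjamini-Hochberg over 61179 probe sets). None of the 3 probe sets passed the study thresholds, against 4.78% of all probe sets, and the unadjusted p were 0.52, 0.30 and 0.19. The difference of both split responses itself, low-K side minus normal-K side, was -1.22 (standard error 0.69) for Rab15_at and -0.87 (standard error 0.45) for Rab15_x_at. For Rab15_EST it was -1.64 (standard error 1.31). In this difference 0 of 3 passed the study thresholds, against 3.55% of all probe sets, and no p is given because it contains the comparison in which the gene was noticed.

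Uniform low K against uniform normal K addresses K shortage without a split supply. In C. LK vs. C. NK, which shares its C. NK arrays with the comparison in which the gene was noticed, the log2 fold changes were 0.36 (standard error 0.49) for Rab15_at and 0.28 (standard error 0.32) for Rab15_x_at. The intervals at 95% ran from -0.70 to 1.41 and from -0.41 to 0.97. Rab15_EST had 1.19 (standard error 0.93). The adjusted p of limma were 0.97, 0.96 and 0.94, and 0 of 3 passed the study thresholds, against 3.65% of all probe sets. C. NK replicate 2 fixed the direction for Rab15_at, whose log2 fold change was -0.36 (standard error 0.33) without it. The SD over the C. LK arrays was small for this probe set (0.18 on the log2 scale), and its C. LK signals lay between 77.3 and 97.9, within the range of the C. NK arrays. The 3' minus 5' difference of sucrose synthase was 3.86 to 4.06 in C. LK and 4.29 to 4.51 in C. NK. That of actin, whose 3' signal fell close to background, was -1.51 to -0.99 in C. LK and -3.87 to -2.16 in C. NK. On the other wheat controls these groups overlapped. The part of RNA quality was not tested here either.

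Both sides of the split roots were also set against each other, with the Sp. NK arrays shared with the comparison above. Rab15_at was lower on every Sp. LK array than on every Sp. NK array, as in 3.39% of all probe sets, with a log2 fold change of -0.86 (standard error 0.49, 95% interval -1.92 to 0.20). Rab15_x_at had -0.59 (standard error 0.32, 95% interval -1.28 to 0.10), with Sp. LK replicate 1 above Sp. NK replicate 3 and all other pairs of arrays the other way. Rab15_EST had -0.45 (standard error 0.93). In Sp. LK vs. Sp. NK, 0 of 3 passed the study thresholds, against 2.75% of all probe sets, at unadjusted p of 0.10, 0.089 and 0.63 and an adjusted p of 1.00 for all 3 in limma. Rab15_at passed them in a fit of these 6 arrays alone, in the methods' t-test and without C. NK replicate 2, all of which are fits that this array does not enter. Rab15_x_at passed them without Sp. LK replicate 1 or without Sp. NK replicate 3. As the gene was chosen with the high Sp. NK arrays known, neither these p nor the settings that passed are independent of that choice.

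In Sp. NK vs. C. LK, the log2 fold change of Rab15_at was 1.18 (standard error 0.49, 95% interval 0.12 to 2.24). Its unadjusted p was 0.031 and its adjusted p 0.80 in limma. Every Sp. NK array lay above every C. LK array, as in 5.87% of all probe sets. It was the 1 of 3 probe sets past the study thresholds here, against 4.33% of all probe sets. It did not pass them without Sp. NK replicate 1, Sp. NK replicate 3, C. LK replicate 1 or C. LK replicate 2, nor without the variance trend. Its standard error also takes in C. NK replicate 2, an array of neither group. That error was 0.30 without this array and 0.26 in a fit of both groups alone, and Rab15_at passed in both. Because the high Sp. NK arrays were known when the gene was chosen, none of these results is independent of that choice. Rab15_x_at had 0.24 (standard error 0.32) and Rab15_EST had -0.82 (standard error 0.93), with adjusted p of 0.94 and 0.93 in limma. In Sp. LK vs. C. NK, 0 of 3 passed the study thresholds, against 3.51% of all probe sets, with log2 fold changes of 0.68, -0.06 and -0.08 (standard errors 0.49, 0.32 and 0.93) and adjusted p of 0.983, 0.995 and 0.997 in limma.

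**Figure D3:**
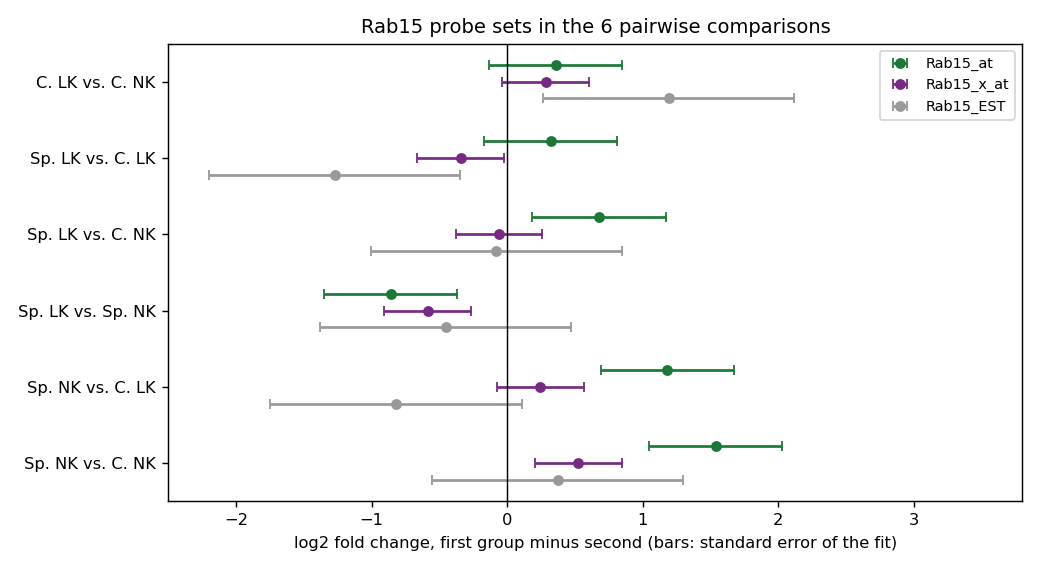
Log2 fold changes of the 3 Rab15 probe sets (points) in the 6 pairwise comparisons, first group minus second, with the standard error of the fit as bars. Rab15_at is farthest from 0 in Sp. NK vs. C. NK (1.54) and Sp. NK vs. C. LK (1.18), and the bright probe sets differ in sign in Sp. LK vs. C. LK (0.32 and -0.34).

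Among all probe sets, limma called 0 after adjustment in 5 of these 6 pairwise comparisons and 1, which is not Rab15, in Sp. NK vs. C. LK. At an unadjusted p under 0.05 it counted between 1912 and 4584 probe sets, and the methods' t-test called 0 after adjustment in all 6. With 3 arrays against 3, an exact permutation test cannot go below a p of 0.1.

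Rab15_at and Rab15_x_at, which share a target, followed each other loosely. Over the 12 arrays their log2 signals correlated at r = 0.50 and rho = 0.36, and the deviations of the arrays from their group means at r = 0.36. The arrays are shared by both, so these values are a description. They agreed on C. NK replicate 2 as the lowest array, and on Sp. NK replicates 1 and 2 as being among the 3 highest. They parted on C. LK replicate 2, which was the highest array on Rab15_x_at and the second lowest on Rab15_at, and on Sp. NK replicate 3, the highest on Rab15_at. Without C. NK replicate 2 the r was 0.23, and without C. LK replicate 2 it was 0.66. On the whole array, 1470 pairs of such probe sets with the same name apart from the x had both members among the brighter ones. Their r over the 12 arrays had a median of 0.65 (quartiles 0.32 and 0.87). The r of their deviations from the group means had a median of 0.67 (quartiles 0.32 and 0.88). Rab15_EST correlated with Rab15_at at r = -0.0013 and with Rab15_x_at at r = 0.17.

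**Figure D4:**
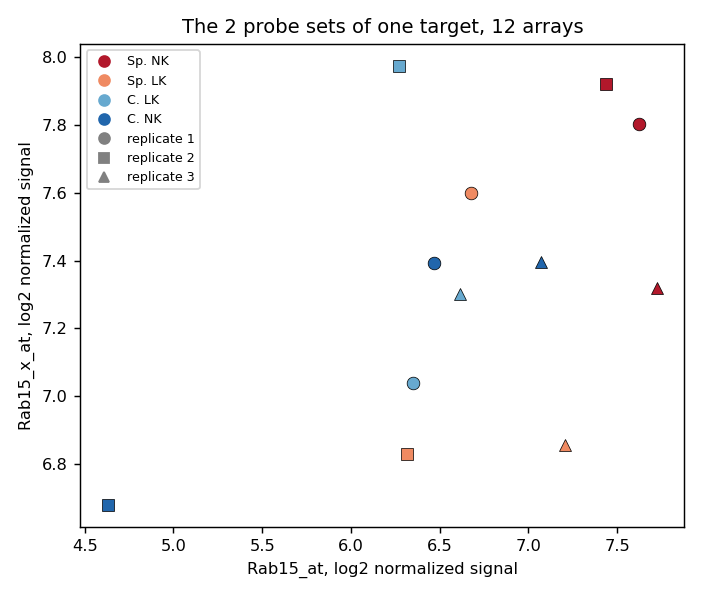
Log2 normalized signal of Rab15_x_at (y axis) against Rab15_at (x axis), both designed on the same target, on the 12 arrays, with colour for the K supply and symbol for the replicate number. C. NK replicate 2 is lowest on both axes, and C. LK replicate 2 is highest on the y axis but near the low end of the x axis, with r = 0.50 over all arrays.

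The fold changes of both probe sets were set against each other, with no difference shown by a test. That of Rab15_at exceeded that of Rab15_x_at by 1.01 on the log2 scale on the normal-K side against C. NK (standard error 0.57), a value without a test because the gene was selected there. In Sp. LK vs. Sp. NK the difference lay the other way, at -0.27 (standard error 0.46), and in Sp. NK vs. C. LK it was 0.94 (standard error 0.43), both also without a test. In Sp. LK vs. C. LK it exceeded it by 0.66 (standard error 0.50, exact two-sided permutation p = 0.4 over 3 arrays against 3), in Sp. LK vs. C. NK by 0.74 (standard error 0.63, exact permutation p = 0.4) and in C. LK vs. C. NK by 0.07 (standard error 0.61, exact permutation p = 1). Adjusted over these 3 tests, the exact p were 0.6, 0.6 and 1, and the smallest raw p the design allows is 0.1. Over the 1470 brighter pairs of such probe sets, the absolute difference of both log2 fold changes had a median of 0.10 to 0.12, depending on the comparison. Its upper quartile was 0.22 to 0.24. The Rab15 pair lay above the upper quartile in every comparison except C. LK vs. C. NK, where it lay below the median. This is a description.

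The genes whose pattern was most like Rab15 were taken from 862 other brighter probe sets with exactly 1 gene symbol, by Pearson r over the 12 arrays. For Rab15_at the 5 nearest were 2 probe sets of LOC606373 (r = 0.78 and 0.73) and 1 each of LOC543148 (0.74), LOC606326 (0.72) and LOC543492 (0.71). The annotation used here gives no role for these genes. LOC606326 averaged 160 ± 16.4 in Sp. NK, 131 ± 7.09 in Sp. LK, 73.4 ± 15.8 in C. LK and 93.3 ± 33.4 in C. NK (SD, n = 3 each). LOC543492 correlated at 0.86 in its deviations from the group means. The nearer probe set of LOC606373 averaged 303 ± 15.9 in Sp. NK, 246 ± 37.7 in Sp. LK, 243 ± 40.6 in C. LK and 233 ± 52.7 in C. NK. For Rab15_x_at the nearest was a probe set of rbcL (LOC100049018, the large subunit of rubisco in plastids) at r = 0.71, followed by LOC543147 (0.66), LOC543332 (0.62), LOC543378 (0.62) and LOC543453 (0.62). None of these genes was among the nearest of Rab15_at. The nearest of the dim Rab15_EST was LOC100125692, an avenin-like storage protein gene, at r = 0.68. These are the highest of 862 values and hold no test.

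Few other genes of the same response carry a name on this array. Of 5 lists, the list of dehydrins and LEA proteins held 5 probe sets of 3 genes, which are the 3 of Rab15 and 1 each of COR410 and LEA1 (LOC543476). The list of cold and salt regulated genes held COR410 alone, and those of abscisic acid signalling, of drought and cold transcription factors and of water and osmotic balance matched no named probe set. LEA1, a LEA protein of another class than the dehydrins that is named here after its values were seen, had signals of 146, 80.7 and 82.9 in Sp. NK and 123, 113 and 82.4 in Sp. LK. It had 97.3, 87.0 and 67.3 in C. LK and 129, 76.2 and 84.0 in C. NK, and all groups overlapped. The LEA1 probe set also carries the suffix x, so some of its probes can bind similar transcripts. Its log2 fold change was 0.08 (standard error 0.35) between Sp. NK and C. NK and 0.33 (standard error 0.35) in Sp. LK vs. C. LK, with adjusted p of 1.00 and 0.85 in limma. COR410, an acidic dehydrin known from cold-hardened wheat, ranged from 1.63 to 36.8 over the arrays, near background. Neither LEA1 nor COR410 passed the study thresholds in any of the 6 pairwise comparisons, in which 2.75% to 4.78% of all probe sets passed them. Of this list of 5, the 1 probe set that passed them, between Sp. NK and both uniform supplies, was Rab15_at itself, which adds nothing to its own values above.

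The labelled tissue could be checked by few names. ALMT1 (LOC543388), a malate transporter of the root tip, had signals of 29.1 to 88.7 over all arrays. The list of root uptake genes held no other named probe set, and the patterns for seed storage genes matched none, since they missed the avenin-like LOC100125692, which is listed under abbreviated synonyms. That storage protein gene averaged 140 ± 55.5 in Sp. NK, 123 ± 28.8 in Sp. LK, 137 ± 11.8 in C. LK and 145 ± 36.7 in C. NK (SD, n = 3 each), above the range close to background. The 28 probe sets of rbcL, a plastid gene, summed to 7069 to 9597 in Sp. NK, 6559 to 7446 in Sp. LK, 7608 to 8298 in C. LK and 8286 to 10773 in C. NK, with 5 of the 28 above a signal of 32 on every array. Their part in the results was not tested. Over the brighter probe sets, pairs of arrays of one condition correlated at a median r of 0.968 and pairs of different conditions at 0.969. All arrays had a mean linear signal of 500.1 without the outer 2% of probe sets on each side, and every fold change is relative to it.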

How the data were processed

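The deposited values are log2 signals, which the authors obtained from the scans by MAS 5.0 normalization in GeneSpring. Their background correction and probe summary were kept, and no detection calls were used. The tables hold 61290 probe sets. Without the 111 controls of the array, 61179 were fitted in R 4.3.3 with limma 3.58.1 (group means of all 12 arrays, eBayes with a variance trend, two-sided), with no filter or further scaling. Adjustment was by Benjamini-Hochberg over all of them. The fit was tested on simulated data with the same spread in all conditions, so this test does not cover the unequal spread of Rab15_at. Correlations and permutation tests were run in Python 3.11.15 with scipy 1.17.1.

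The platform annotation of 2007 gives 1 gene symbol to 1273 probe sets, and 1272 had their gene in a RefSeq table (assembly IWGSC CS RefSeq v2.1), from which synonyms alone were taken. Named were all probe sets of Rab15, the members of 5 lists matched by name that passed the study thresholds or were the 2 with the highest mean signal of a list, and the 5 nearest patterns per probe set. Rab15 and the lists were chosen with earlier results of these data known. Precision is limited by 3 arrays a condition. The p-values measure the spread between arrays that the labels call biological replicates. Alternatives were the variance trend, the test of the study's methods (the methods' t-test), quantile normalization, a floor and a pseudocount of 32, a filter on dim probe sets, fits of the groups compared, the replicate number as a block and leaving out each array.

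It was checked whether same-numbered arrays deviate together from their group means over the brighter probe sets. For Sp. NK and C. NK their r were 0.27, 0.16 and 0.28, each the highest for its own number. These arrays may thus be paired by number, although the labels do not say so. In the other 5 pairs of conditions at least 1 r was under 0.1, and the numbers were not taken to pair the arrays. As 1 of 6 pairs of conditions was picked out by its values, chance was not excluded. The main fit has no block, and the alternative with the replicate number as a block is given below.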

Additional observations from a re-analysis of the deposited data

How the results depend on the processing

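Apart from the changes named here, the number of Rab15 probe sets past the study thresholds was the same under the alternatives run. On the normal-K side against C. NK it was 0 with the methods' t-test. In Sp. LK vs. Sp. NK it was 1 with the methods' t-test and 1 in a fit of the groups compared only. In Sp. NK vs. C. LK it was 0 without the variance trend. With each array left out in turn it ranged from 0 to 1 in Sp. LK vs. Sp. NK, in Sp. NK vs. C. LK and in Sp. LK vs. C. NK (1 without C. NK replicate 3). For the difference of the split responses it ranged from 0 to 2, where leaving out Sp. NK replicate 3 gave 2, and leaving out C. NK replicate 3, replicate 1 of Sp. LK or replicate 1 of C. LK gave 1. The r of both probe sets of the same target ranged from 0.23 to 0.66.

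Directions of single probe sets turned only where an array was left out. The log2 fold change of Rab15_at ranged from -0.36 to 0.86 in C. LK vs. C. NK and from -0.037 to 1.18 in Sp. LK vs. C. NK, and both turned without C. NK replicate 2. In Sp. LK vs. C. NK it ranged from -0.31 to 0.072 for Rab15_x_at, turning without Sp. LK replicate 2 or 3 or C. NK replicate 1 or 3, and from -0.51 to 0.21 for Rab15_EST, turning without Sp. LK replicate 1 or 2 or C. NK replicate 1. Rab15_EST also turned without Sp. NK replicate 2 between Sp. NK and C. NK (-0.35 to 1.34) and in Sp. LK vs. Sp. NK (-1.43 to 0.26), and without Sp. NK replicate 3 in Sp. NK vs. C. LK (-1.54 to 0.15). Beyond the arrays left out, the cause was not tested.

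With the replicate number as a block (replicate block), the log2 fold change of Rab15_at between Sp. NK and C. NK was 1.54 (standard error 0.41), and no count of Rab15 probe sets changed. The signal floor gave no value for Rab15_EST, which lies below it on every array, and the filter on dim probe sets left it out. Signals near background limit this probe set and C. NK replicate 2 of Rab15_at.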

Other observations

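The Em genes are LEA genes of wheat embryos that abscisic acid induces, and 5 probe sets carry them here (3 of LOC543480 and 2 of LOC543497). This list was added after the annotation had been seen. All 5 fell under a signal of 32 on at least 1 array, and 0 of 5 passed the study thresholds in any of the 6 pairwise comparisons, in which 2.75% to 4.78% of all probe sets passed them, so this count does not set the Em genes apart. The median log2 fold change of the 5 was 0.45 between Sp. NK and C. NK and 1.06 in Sp. LK vs. C. LK, with members of both signs in each. The farthest from 0 were both probe sets of LOC543497 in Sp. LK vs. C. LK, at 1.5 (standard error 0.83) for the one with the suffix s and -1.96 (standard error 0.91) for the one with the suffix x, with adjusted p of 0.72 and 0.67 in limma. The estimates for probe sets of the same gene thus had opposite signs here. So had Rab15_at (0.32, standard error 0.49) and Rab15_x_at (-0.34, standard error 0.32) in the same comparison. The 95% intervals of both Rab15 values include 0, so no opposite response is read from these signs.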
